A study of Saccharomyces cerevisiae with 4 samples.

Results

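The distal parts of the left and right arms of budding yeast chromosome VII were followed through Hi-C maps of Saccharomyces cerevisiae BY4742, a haploid laboratory strain. The regions were defined by their place in the map and not by a cutoff on any measured value, though earlier results of these data were known. They comprised 101 restriction fragments of the left arm, 93 to 193 fragments from the centromere, and 103 of the right arm, 97 to 199 fragments from it, or 204 of the 4381 fragments shared by the maps. Hi-C counts how often 2 fragments of the genome, here cut with HindIII after formaldehyde fixation and then ligated, are found joined. One culture condition was growth at 25 °C followed by 15 min at 37 °C after prewarmed medium had been added, and the other was growth at 25 °C throughout. All cultures were in mid-log phase, carried no other genetic change in the labels, and were fixed with 3% formaldehyde. Each temperature had 2 biological replicates, which the authors combined into 1 map, so every comparison below has no replicate check, no test and no p-value. The intervals given are exact 95% counting intervals and cover counting error only.

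In yeast interphase nuclei the centromeres are held together near the spindle pole body, and the chromosome arms extend away from it, an arrangement known as the Rabl configuration. Telomeres gather at the nuclear envelope, and the place an arm end reaches depends largely on arm length. Arms of like length are known to meet more often than arms of unlike length. Chromosome VII is a long chromosome with its centromere near the middle.

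The maps list contacts by fragment number, with no chromosome names or positions. Chromosome VII was the seventh block of fragments, 423 in all, and its centromere was placed at row 1527, where contacts with the centromeres of the other chromosomes peaked. By fragment number its arms were nearly equal, 208 on the left and 214 on the right. In the gene table the left arm was 497 kb and the right arm 594 kb long, a difference of 97.0 kb, so the right arm had 2.77 kb for each fragment and the left arm 2.39 kb. A centromere placed from the gene table, taking all fragments of the chromosome as equally long, lay at row 1512. This offset from the contact peak, 38.7 kb, was the largest of the 16 chromosomes, whose median was 13.15 kb. The arms are thus more alike in fragments than in length, and this bears on every statement on equal distance below. Both regions stopped 15 fragments short of the chromosome end. By interpolation in the R64 gene table the left region spanned 239 kb with 123 genes and the right region 283 kb with 151 genes.

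The landmarks of the left region run inwards from PDE1 (YGL248W, chrVII:35653-36762), a cAMP phosphodiesterase gene, through SEC15, which encodes a subunit of the exocyst, COX4, a subunit of cytochrome c oxidase, XRN1, the cytoplasmic 5′ to 3′ exoribonuclease, and RAD54, a recombination protein, to MON1 (YGL124C, chrVII:274780-276714), which acts in vacuole fusion. The right region begins near TPO2 (YGR138C, chrVII:763762-765606), a polyamine transporter gene. It then holds HIP1, the histidine permease, and the glycolytic gene TDH3 (YGR192C, chrVII:882812-883810) in the same fragment, RPS0A, a protein of the small ribosomal subunit, PHB2, a prohibitin, PFK1, a subunit of phosphofructokinase, SOL4, of the pentose phosphate pathway, and ENO1, an enolase. It ends near SCW4 (YGR279C, chrVII:1048798-1049958), a cell wall protein gene. These places are interpolated, and for chromosome VII the gene table and the contact peak disagreed by 15 fragments on the centromere.

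In total 1937970 contacts were recorded at 37 °C and 5920062 at 25 °C. Contacts of the distal left arm with other chromosomes numbered 69335 at 37 °C and 224644 at 25 °C, and those of the right arm 76218 and 230791. Expected contacts were computed from one factor per fragment, fitted so that each fragment's contacts with other chromosomes came out as observed. A ratio of 1 is therefore the genome's average for 2 fragments of that coverage on different chromosomes. At 37 °C a set of 580 fragments, 13.5% of the 4281 with enough contacts, had a factor more than 2 times the median relative to 25 °C. Of these raised fragments 13 lay in the distal left arm (12.9% of its kept fragments) and 17 in the right (16.8%). Results are given without them where they move.

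Both distal arms met the centromere regions of the other 15 chromosomes far less often than average, and this deficit was smaller at 37 °C. For the left arm the ratio of observed to expected contacts was 0.398 (0.379 to 0.418) at 37 °C and 0.271 (0.263 to 0.279) at 25 °C (log2 ratio 0.56, interval 0.47 to 0.64). For the right arm it was 0.431 (0.412 to 0.450) at 37 °C and 0.282 (0.274 to 0.290) at 25 °C (log2 ratio 0.61, interval 0.53 to 0.69). Each arm was higher at 37 °C with all 15 partner chromosomes, and the counting interval lay above 0 for 11 of 15 with the left arm and 13 of 15 with the right. Among the outer arms of the other chromosomes the same held for 68.9% of 222 such pairs. Without the raised fragments the left arm stood at 0.333 at 37 °C and 0.248 at 25 °C, and the right arm at 0.334 and 0.244.

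The gain at 37 °C faded with the partner's distance from its centromere and then turned. In each map a fragment's expected contacts with other chromosomes add up to its observed ones. A higher ratio with some partners must therefore be offset by a lower ratio with others. That a turn occurs is thus not a separate finding, while its place along the partner arms is not fixed by the fit. With fragments 8 to 19 from a centromere the log2 ratio of 37 °C over 25 °C was 0.31 (0.26 to 0.37) for the left arm and 0.38 (0.33 to 0.43) for the right. With fragments 20 to 49 away it was 0.10 (0.07 to 0.13) and 0.12 (0.09 to 0.14). With partners 50 to 94 fragments away the left arm was at 1.05 at 37 °C and 1.09 at 25 °C, and the right arm at 1.05 and 1.05. With the outer arms of other chromosomes, at least 95 fragments from the centromere, both arms met more often than average in both maps, and a little less so at 37 °C. The left arm stood at 1.28 (1.27 to 1.296) at 37 °C and 1.35 (1.35 to 1.36) at 25 °C, and the right arm at 1.29 (1.28 to 1.303) and 1.39 (1.39 to 1.40). The log2 ratios were -0.08 (-0.10 to -0.06) for the left arm and -0.11 (-0.13 to -0.10) for the right. Without the raised fragments they were -0.04 (-0.06 to -0.02) and -0.06 (-0.08 to -0.04). The interval lay below 0 with 8 of 12 partner chromosomes for the left arm and 9 of 12 for the right, against 56.7% of 180 such pairs among other outer arms. In both arms the loss was greatest with the farthest partners, 200 or more fragments out. There the left arm stood at 1.33 (1.31 to 1.36) at 37 °C and 1.45 (1.44 to 1.47) at 25 °C. The right arm stood at 1.37 (1.35 to 1.40) at 37 °C and 1.54 (1.52 to 1.554) at 25 °C.

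**Figure D1:**
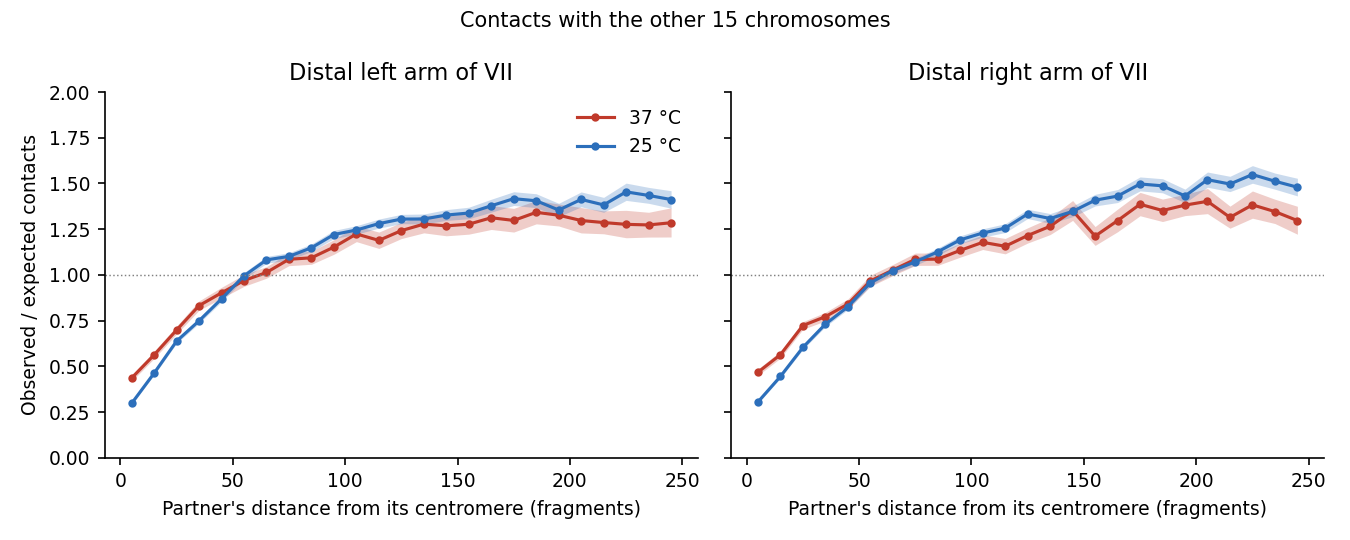
Observed over expected contacts of the distal left arm (left panel) and distal right arm (right panel) of chromosome VII with fragments of the other 15 chromosomes, in bins of 10 fragments of the partner's distance from its own centromere, in the 37 °C map (red) and the 25 °C map (blue), with bands for the 95% counting interval. In both arms the 37 °C line starts above the 25 °C line, meets it near 50 to 90 fragments and runs at or below it farther out.

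All 17 outer arms with at least 20 fragments were ranked by their ratio with centromere regions, from the highest down. The left arm of chromosome VII was number 14 at 37 °C and 12 at 25 °C, in the lower part of the range, and the right arm was number 8 and 10. At 37 °C their ratios with centromere regions, 0.398 and 0.431, compare with a range of 0.377 to 0.561 and a median of 0.428. At 25 °C the values 0.271 and 0.282 compare with 0.225 to 0.411 and a median of 0.282. All 17 arms had a higher ratio at 37 °C, with log2 ratios of 0.33 to 0.74.

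Within each region the deficit with centromeres did not run steadily in one direction. Each region was divided into 4 segments by distance from the centromere, with 25 or 26 kept fragments each in the left arm and 21 to 31 in the right. The left arm's segments, from the one nearest the centromere outwards, had 0.397, 0.461, 0.345 and 0.379 at 37 °C and 0.264, 0.292, 0.272 and 0.258 at 25 °C. The right arm's segments had 0.437, 0.382, 0.454 and 0.428 at 37 °C and 0.324, 0.245, 0.2998 and 0.267 at 25 °C. Raised fragments were spread unevenly, with 1, 5, 2 and 5 in the left arm's segments and 4, 1, 7 and 5 in the right arm's. Their part in this uneven course was not tested, so it cannot be read as an effect of position alone. Over single fragments of the left arm, the ratio ranged from 0.0611 to 0.819 with a median of 0.356 at 37 °C, and from 0.149 to 0.425 with a median of 0.266 at 25 °C. In the right arm it ranged from 0.0755 to 0.712 (median 0.409) at 37 °C and from 0.139 to 0.570 (median 0.267) at 25 °C. The fragment at 0.570 was a raised one. The correlation of this ratio with distance from the centromere over the 101 kept fragments of each arm was between -0.16 and -0.05. These fragments share their libraries and differ in depth.

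Contacts with the 11 outermost fragments of the other chromosomes' ends did depend on position. In the left arm the segments had, outwards, 0.907, 0.898, 1.06 and 1.27 at 37 °C and 0.923, 0.964, 1.01 and 1.34 at 25 °C. In the right arm they had 0.802, 0.862, 1.04 and 1.12 at 37 °C and 0.851, 0.882, 0.969 and 1.13 at 25 °C. The outermost segment thus met other chromosome ends most in both arms and both maps. Taken over the whole region, the left arm met chromosome ends more than the right, by a log2 ratio of 0.09 (0.03 to 0.14) at 37 °C and 0.13 (0.10 to 0.16) at 25 °C.

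Neighbourhoods of 11 fragments around the 15 landmark genes gave the same picture locally. Several of them overlap, those at the region edges reach outside, and all draw on the arms described above, so they are not separate checks. Their ratio with centromere regions ranged from 0.305 to 0.527 at 37 °C and from 0.199 to 0.381 at 25 °C. The fragments around TDH3 and HIP1 stood at 0.391 at 37 °C and 0.228 at 25 °C (log2 ratio 0.78, interval 0.47 to 1.07), with no raised fragment among them. Those around XRN1 stood at 0.481 at 37 °C and 0.283 at 25 °C (log2 ratio 0.76, interval 0.53 to 1.00), with 3 raised fragments. The lowest log2 ratio of the 15 was at MON1, at the inner edge of the left region, with 0.313 at 37 °C and 0.289 at 25 °C (log2 ratio 0.11, interval -0.21 to 0.43), where no difference was detectable at this depth. With outer arms, ENO1's neighbourhood stood at 1.28 at 37 °C and 1.42 at 25 °C (log2 ratio -0.15, interval -0.20 to -0.10), the most negative of the 15.

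The 2 distal arms shared their partners among the 30 arms of the other chromosomes. Both met the right arms of chromosomes IV, XII and XV most, in both maps. With IV right the left arm stood at 1.253 at 37 °C and 1.32 at 25 °C, and the right arm at 1.31 and 1.38. With XII right the left arm stood at 1.16 at 37 °C and 1.23 at 25 °C, and the right arm at 1.23 and 1.33. With XV right the values were 1.15 and 1.17 for the left arm and 1.19 and 1.251 for the right. The lowest partners came from the arms of chromosome I, III left and IX right. The left arm met I left at 0.475 at 37 °C and 0.4999 at 25 °C, and the right arm at 0.503 and 0.409. These low partners are short arms and the high ones long arms: the correlation of partner ratio with the partner arm's number of fragments was between 0.91 and 0.95 over the 30 arms. Long arms also hold more fragments far from a centromere.

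Over the 30 partner arms the left and right ratios had a correlation of 0.969 at 37 °C and 0.989 at 25 °C, given as a description of arms that share their libraries. A partner arm was called different between left and right where left over right was at least 0.32 away from 0 on the log2 scale, with the counting interval on the same side of 0. None of 30 was at 37 °C and 1 of 30 was at 25 °C. On the 4 other chromosomes with outer fragments on both arms (IV, X, XV and XVI), whose arms differ more in length, the same rule called 29.4% of 119 partner arms at 37 °C and 45% of 120 at 25 °C. Smaller differences were common: without the 0.32 threshold, the counting interval excluded 0 for 12 of 30 partner arms at 37 °C and 18 of 30 at 25 °C. The share by interval alone is not given for the other chromosomes. The single call was VI right, which the left arm met at 0.655 at 37 °C and 0.596 at 25 °C and the right arm at 0.579 and 0.460, a left over right log2 ratio of 0.18 (0.00083 to 0.35) at 37 °C and 0.37 (0.26 to 0.49) at 25 °C. At 37 °C the largest difference was with V left, at 0.777 for the left arm and 0.623 for the right (log2 ratio 0.32, interval 0.16 to 0.48), just under the threshold. Without the raised fragments 4 partner arms were called at 37 °C (I right, III left, VI left and VI right, each higher with the left arm) and none at 25 °C.

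**Figure D2:**
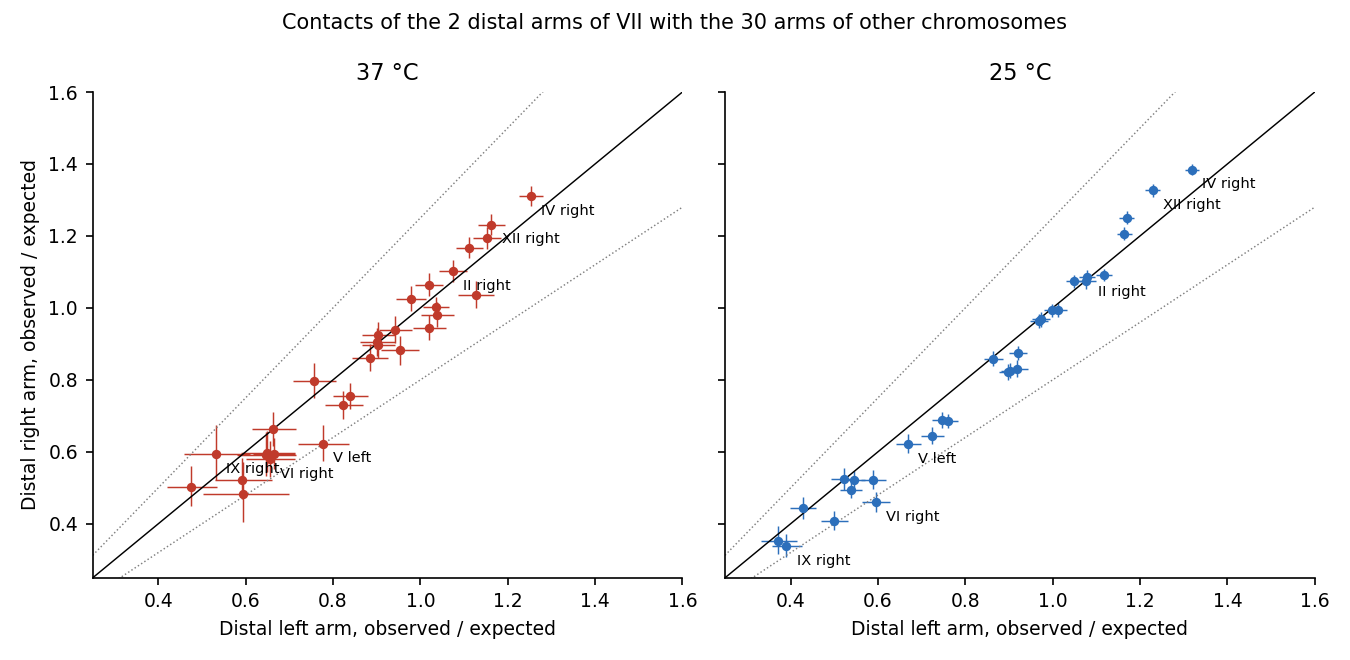
Observed over expected contacts of the distal left arm (x axis) and distal right arm (y axis) of chromosome VII with each of the 30 arms of the other chromosomes, at 37 °C (left panel) and 25 °C (right panel), with 95% counting intervals. The solid line marks equal ratios and the dotted lines a log2 ratio of 0.32 either way; at 25 °C VI right lies outside them, with 0.596 for the left arm and 0.460 for the right.

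With the longest partners the right arm met slightly more than the left did. The left over right log2 ratio was -0.08 (-0.13 to -0.03) at 37 °C and -0.11 (-0.14 to -0.08) at 25 °C with XII right, and -0.07 (-0.11 to -0.02) and -0.07 (-0.10 to -0.05) with IV right. By partner class, the left over right log2 ratio with fragments 20 to 49 from a centromere was 0.05 (0.01 to 0.09) at 37 °C and 0.06 (0.04 to 0.08) at 25 °C. With fragments 200 or more away it was -0.04 (-0.08 to -0.00) at 37 °C and -0.08 (-0.10 to -0.06) at 25 °C. With centromere regions, the nearest class, it was -0.11 (-0.21 to -0.02) at 37 °C and -0.06 (-0.12 to 0.00490) at 25 °C. With the raised fragments included, the order of the arms thus did not run in one direction with the partner's distance. Their order with centromere regions did not hold without the raised fragments. The left arm then stood at 0.333 and the right arm at 0.334 at 37 °C, and at 0.248 and 0.244 at 25 °C.

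Partners were also compared at one range of distances, 95 to under 200 fragments from their centromere, where 16 arms had at least 10 fragments. Every one of them was met at or above the average. The left arm's ratios ran from 1.11 to 1.33 with a median of 1.24 at 37 °C, and from 1.196 to 1.41 with a median of 1.304 at 25 °C. The right arm's ran from 1.02 to 1.41 (median 1.21) at 37 °C and from 1.00 to 1.56 (median 1.29) at 25 °C, a wider spread than the left arm's in both maps. XII right, the arm that carries the ribosomal DNA, had the highest ratio with the right arm, 1.41 at 37 °C and 1.56 at 25 °C, and met the left arm at 1.27 and 1.38. The left over right log2 ratio there was -0.15 (-0.24 to -0.07) at 37 °C and -0.17 (-0.22 to -0.13) at 25 °C. X right lay at the other end, with 1.11 for the left arm and 1.02 for the right at 37 °C, and 1.196 and 1.00 at 25 °C. There the left over right log2 ratio was 0.13 (-0.07 to 0.33) at 37 °C and 0.26 (0.15 to 0.36) at 25 °C, so the arms differed past the counting error at 25 °C, while at 37 °C the interval held 0. The ratios of these outer fragments still had a correlation of 0.62 to 0.83 with the length of the arm they lie on.

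Between the maps, partner arms past the same threshold were 3 of 30 for the left arm and 4 of 30 for the right, each higher at 37 °C, and none was lower. Over all 480 pairs of whole arms on different chromosomes 0.417% were called higher and 1.46% lower. Those pairs hold whole arms, centromere included, and so are not matched to distal regions. The highest were short arms, whose fragments all lie at most 58 fragments from their centromere. I right with the left arm had 0.595 at 37 °C and 0.372 at 25 °C (log2 ratio 0.68, interval 0.39 to 0.96). IX right with the right arm had 0.594 at 37 °C and 0.338 at 25 °C (log2 ratio 0.81, interval 0.58 to 1.04). The lowest log2 ratio in both arms was with XIV left, -0.11 for the left arm and -0.12 for the right. Not every short arm was higher at 37 °C. I left had a log2 ratio of -0.07 (-0.27 to 0.12) with the left arm and 0.30 (0.11 to 0.48) with the right.

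Contacts of the left arm with the right arm of the same chromosome were counted over 10201 fragment pairs. The ratio to the inter-chromosomal expectation was 1.70 (1.64 to 1.76) from 3263 contacts at 37 °C and 1.03 (1.00 to 1.06) from 5782 contacts at 25 °C (log2 ratio 0.72, interval 0.66 to 0.78). Against either arm with fragments of other chromosomes at the same 2 distances from their centromeres, left with right was 1.35-fold (1.305 to 1.40) at 37 °C and 0.774-fold (0.754 to 0.795) at 25 °C. Taken at face value the arms met each other more than they met equally distant foreign arms at 37 °C and less at 25 °C.

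The 25 °C value came with a lack of pairs holding few contacts. At 37 °C, 19.3% of left-right pairs held 1 contact, where Poisson counts of the same mean give 18.8%. At 25 °C, 8.41% held 1 contact, where Poisson counts give 30.4%, and 73.3% were empty, against 57.9%. Pairs with 2 contacts (1087) outnumbered pairs with 1 (858) in the 25 °C map. Pairs of the same fragments with outer arms of other chromosomes did not lack single contacts, since 32.6% for the left arm and 32.8% for the right held 1 contact at 25 °C, where Poisson counts give 32.9% and 33.0%. Which step produced this is not stated in any source at hand. The 37 °C and 25 °C totals of left-right contacts are therefore not on the same footing.

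**Figure D3:**
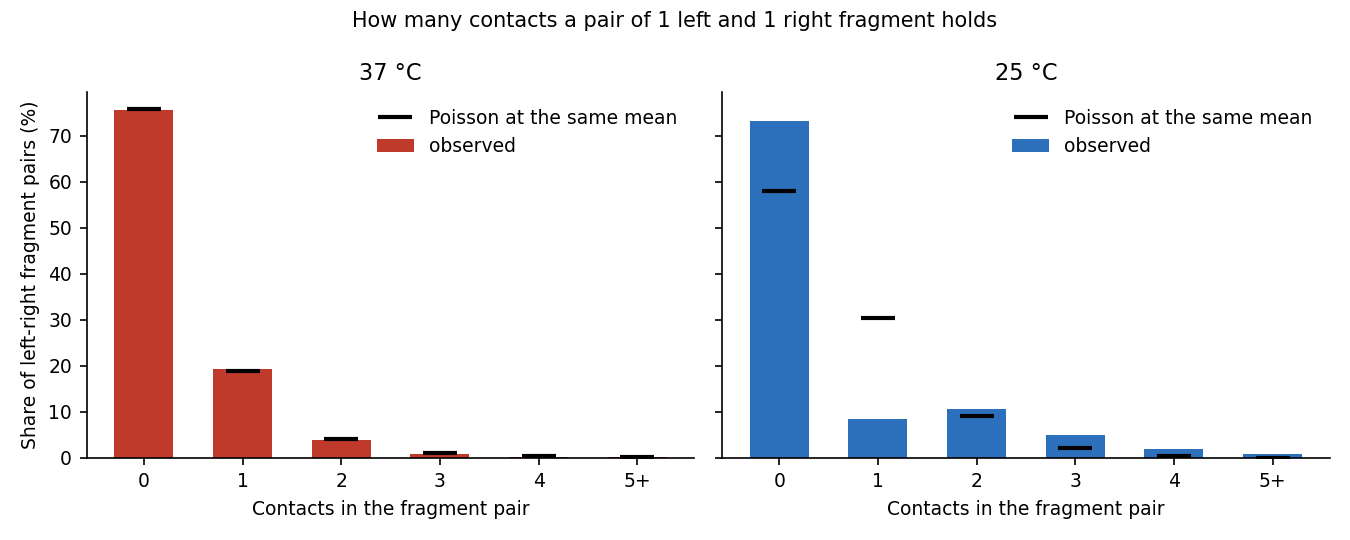
Share of the 10201 pairs of 1 distal left and 1 distal right fragment that hold 0, 1, 2, 3, 4, or 5 and more contacts, at 37 °C (left panel) and 25 °C (right panel); bars are observed shares and black marks the shares that Poisson counts of the same mean and fragment factors give. At 37 °C the bars reach the marks; at 25 °C pairs with 1 contact make up 8.41%, under their mark of 30.4%.

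Pairs with at least 3 contacts gave another answer for 25 °C. A rate was computed that yields, with Poisson counts, the observed number of pairs holding 3 or more contacts. The rate rests on these pairs being complete in both maps. It was 1.66 (1.53 to 1.803) from 142 pairs at 37 °C and 1.67 (1.62 to 1.73) from 782 pairs at 25 °C. For contacts with other chromosomes' fragments in the same range of distances from their centromeres, where single contacts were not lacking, this rate stayed close to the plain ratio. For the left arm it was 1.31 beside 1.26 at 37 °C and 1.33 beside 1.31 at 25 °C, and for the right arm 1.28 beside 1.247 and 1.34 beside 1.33. Relative to other chromosomes at matched distances, left with right then stood at 1.32-fold (1.22 to 1.44) at 37 °C and 1.26-fold (1.22 to 1.297) at 25 °C, above 1 in both maps. The order of the maps also depended on the raised fragments. Without them the rate from pairs with at least 3 contacts was 2.39 (2.13 to 2.67) from 48 pairs at 37 °C and 1.72 (1.65 to 1.78) from 583 pairs at 25 °C, and the plain ratio was 2.12 at 37 °C and 1.02 at 25 °C.

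Left-right contacts on the other chromosomes with outer fragments on both arms were at distances that were not matched to those of chromosome VII. The plain ratio was 2.27 at 37 °C and 2.00 at 25 °C for IV, 3.20 and 1.68 for X, 2.03 and 2.02 for XV, and 2.36 and 2.12 for XVI, each above that of chromosome VII in the same map. The rate from pairs with at least 3 contacts was 2.01 at 37 °C and 2.23 at 25 °C for IV, 2.71 and 2.27 for X, and 2.14 and 2.18 for XVI, also above chromosome VII. For XV it was 1.55 (1.12 to 2.04) at 37 °C, from 8 pairs, and 2.06 at 25 °C. The 37 °C value for XV was below the 1.66 of chromosome VII, but its interval holds that value. On IV, X, XV and XVI the rate lay below the plain ratio at 37 °C and above it at 25 °C. The closeness of rate and plain ratio seen with other chromosomes thus need not hold for left-right pairs. Single contacts were also fewer at 25 °C than Poisson counts give on X, with 3.09% of pairs against 35.2%. The same held for IV (23.6% against 33.9%) and, less strongly, for XVI (27.9% against 33.3%). On XV they were close to the Poisson share, at 31.98% against 33.1%.

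Whether the arms meet preferentially at equal distance from the centromere was asked in 2 ways. Without regard to separation, pairs whose distances differed by at most 10 fragments had a ratio of 1.64 (1.51 to 1.77) at 37 °C and 1.12 (1.05 to 1.18) at 25 °C. Pairs that differed by 60 to 106 fragments had 1.64 (1.51 to 1.78) at 37 °C and 0.958 (0.899 to 1.02) at 25 °C. From pairs with at least 3 contacts, equal distance gave 1.43 (1.13 to 1.76) at 37 °C and 1.799 (1.68 to 1.93) at 25 °C, and the most unequal class 1.599 (1.31 to 1.93) and 1.44 (1.32 to 1.57). At 25 °C the equal class thus lay above the most unequal one by both measures, and at 37 °C no excess at equal distance was detectable at this depth. The most unequal pairs can only have summed distances between 240 and 339 fragments. At 25 °C those sums had the lowest plain ratios, 0.963 and 0.849, against 1.39 and 1.37 for smaller and larger sums. In this first comparison the 25 °C excess therefore cannot be told apart from an effect of separation, which the second holds equal.

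With the summed distance held equal, so that both kinds of pair lay equally far apart along the chromosome, equal over unequal pairs (at most 10 against at least 30 fragments) had a log2 ratio of -0.12 (-0.40 to 0.17) at 37 °C and -0.24 (-0.41 to -0.07) at 25 °C. The 25 °C sign was not stable when distances were set from the gene table. It was 0.49 (0.38 to 0.60) with the centromere from the gene table, and 0.25 (0.12 to 0.37) with interpolated distances in kb. From pairs with at least 3 contacts the value was -0.09 (-0.53 to 0.35), with an interval that holds 0. Under the other settings tried it stayed between -0.30 and -0.20. At 37 °C the gene-table centromere gave 0.18 (0.01 to 0.34). The 15 fragments between the centromere placements are more than the 10 that define equal distance. Neither map therefore gives a direction for contacts at equal distance that holds across these choices. With the outer arms of other chromosomes the same measure was 0.08 (0.00279 to 0.15) for the left arm and 0.01 (-0.07 to 0.09) for the right at 37 °C, and -0.00 (-0.04 to 0.04) and 0.08 (0.04 to 0.12) at 25 °C.

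**Figure D4:**
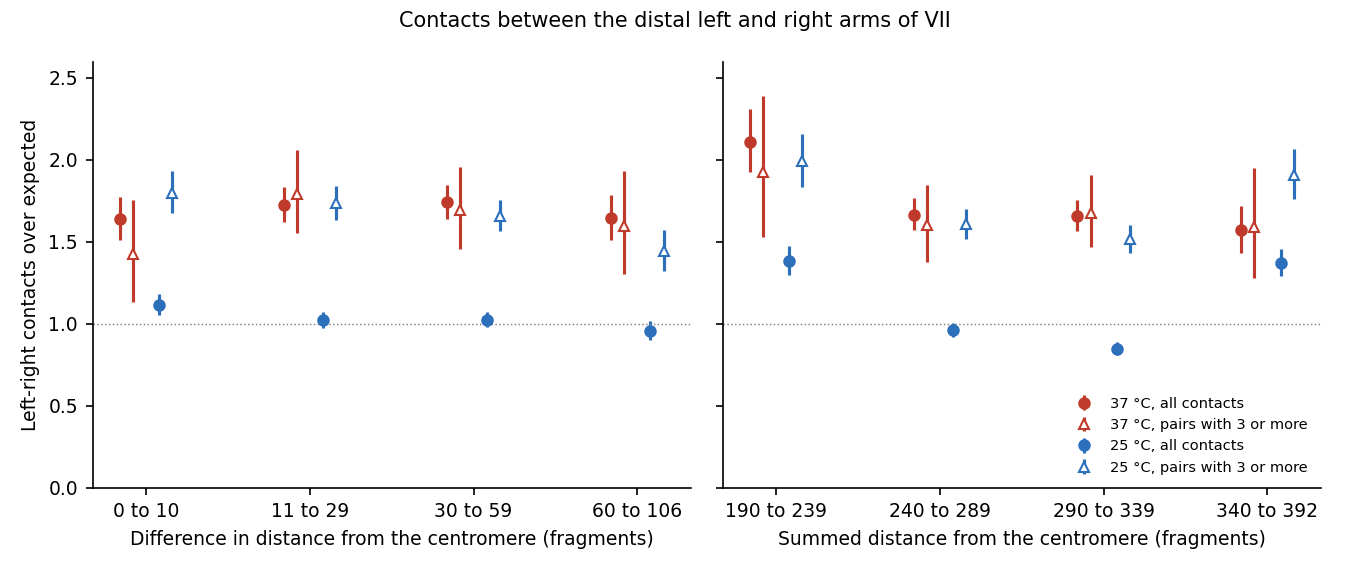
Contacts between the distal left and right arms of chromosome VII over the inter-chromosomal expectation, by the difference (left panel) and by the sum (right panel) of the 2 fragments' distances from the centromere, with 95% counting intervals. Filled circles use all contacts and open triangles the rate from pairs with at least 3 contacts, at 37 °C (red) and 25 °C (blue); the triangles of both maps lie between 1.43 and 1.99, while the 25 °C circles lie between 0.849 and 1.39.

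By separation, pairs whose distances summed to 190 to 239 fragments, the closest along the chromosome, had the highest ratio at 37 °C, 2.11 (1.92 to 2.31). Farther pairs had 1.67 (1.57 to 1.77), 1.66 (1.56 to 1.75) and 1.57 (1.43 to 1.72) in the classes of 240 to 289, 290 to 339 and 340 to 392 fragments. From pairs with at least 3 contacts the 25 °C map gave 1.99 (1.83 to 2.16), 1.61 (1.52 to 1.70), 1.52 (1.43 to 1.61) and 1.91 (1.76 to 2.07) in the same order. The farthest class, which joins the outermost fragments of both arms, was higher than the middle classes at 25 °C by this measure. At 37 °C its rate was 1.59 (1.28 to 1.95) from 26 pairs.

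Where the outermost segments of both arms meet, the plain ratio was 1.51 at 37 °C and 1.44 at 25 °C, from 270 and 683 contacts, the smallest difference between the maps of the 16 blocks of segments, with a log2 ratio of 0.07. The rate from pairs with at least 3 contacts in that block was 1.34 (0.96 to 1.79) at 37 °C and 1.92 (1.73 to 2.13) at 25 °C. Where the innermost segments meet, it was 2.09 (1.51 to 2.78) and 2.15 (1.90 to 2.42). The third segment of the right arm met the 3 inner segments of the left arm least, with plain ratios of 1.31, 1.40 and 1.15 at 37 °C and 0.642, 0.560 and 0.573 at 25 °C. That right segment held 7 raised fragments of 25, and single contacts made up 3.04%, 4.00% and 3.84% of its pairs in those blocks at 25 °C; their part in the low values was not tested.

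Contacts within one distal arm were not compared by distance. In the distal left arm 94.6% of pairs 10 to 19 fragments apart were empty at 37 °C and 99.4% at 25 °C, where contacts at the inter-chromosomal rate would leave 86.0% and 60.1% empty. In the distal right arm 87.8% were empty at 37 °C and 95.1% at 25 °C, against 82.3% and 57.6%. Neighbouring fragments of one arm thus appear in the files with fewer filled pairs than fragments of different chromosomes, and these values do not measure how often neighbours meet.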

How the data were processed

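The authors deposited 1 contact map per temperature, a square table of contact counts between HindIII fragments in which the replicates are combined. Bowtie 1.1.0 and genome build R64 are named per the submitters' processing notes, with further steps not given in the sources used here. Fragments of the maps were aligned by their total counts (4383 at 37 °C and 4388 at 25 °C, leaving 2 and 7 unaligned). The gap penalty of 5 for this alignment was chosen after its results were seen. Chromosome borders were found from inter-chromosomal contacts, and the blocks were named by their order, their sizes having a correlation of 0.993 with the spans in the RefSeq gene table. Fragments in the lowest 2% of contacts in either map were left out (100 in all, of which 2 in the distal right arm). Factors were fitted by iterative proportional fitting, with Python 3.11.15, numpy 2.4.6 and scipy 1.17.1, and the scripts were tested on simulated data. Intervals are Poisson for ratios and Clopper-Pearson for ratios of ratios. They treat contacts as independent, which PCR copies may not be, and reweighted comparisons use an effective number of contacts. Centromere regions reach 7 fragments, chromosome ends 11 fragments, and partner arms needed 50 expected contacts. Named partners are the 3 highest and lowest by each ratio. The regions, lists and classes were chosen with earlier results of these data known. No sequence is shown because no genome sequence was used here.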

Additional observations from a re-analysis of the deposited data

How the results depend on the processing

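No paired analysis was possible because the replicates of each temperature are combined in 1 map. Of 104 recomputed values (13 of them under alternatives chosen after seeing the data), 78 stayed within the counting interval or within 1.5 times the count. Without the raised fragments the log2 ratio of 37 °C over 25 °C with centromere regions was 0.43 (left arm) and 0.45 (right arm), with outer arms -0.040 and -0.061, and between left and right 1.05. That setting moved left-right over other chromosomes to a log2 of 0.68 at 37 °C and -0.41 at 25 °C, and the partner arms called to 4 and 0. A cap of 5 contacts per pair gave 0.42 and 0.48 with centromere regions. Leaving out each partner chromosome in turn gave 0.51 to 0.58 (left arm) and 0.59 to 0.63 (right arm) there, and for left-right over other chromosomes 0.43 to 0.44 at 37 °C and -0.38 to -0.36 at 25 °C.

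From pairs with at least 3 contacts, chosen after seeing the data, the left-right log2 ratio between maps was -0.0062, from at least 4 contacts -0.061, and from at least 3 without raised fragments 0.48. Left-right over other chromosomes was 0.86 at 37 °C under the last of these settings, and at 25 °C it turned to 0.33, 0.45 and 0.34 under the 3 of them. Equal over unequal distance became 0.18 at 37 °C and 0.49 at 25 °C with centromeres from the gene table, -0.75 at 37 °C (-2.08 to 0.40) from pairs with at least 3 contacts, and 0.25 at 25 °C in kb. At 37 °C 1 partner arm was called with no fragment left out, 1 with the lowest 5% left out and 2 without chromosome ends; at 25 °C 0 was called at a fold of 1.5. The cause was not tested for any of these changes.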
